A study of Homo sapiens with 6 samples.

Results

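The genes described here encode the initiation and elongation factors of cytoplasmic translation and the enzymes and inhibitors named after them. They were taken by symbol, as every gene whose symbol starts with EIF1 to EIF6 or with EEF1 or EEF2 and whose description in the deposited table names neither a pseudogene nor an antisense transcript. This gave 70 of the 31835 genes in the table. Of these, 54 are protein-coding EIF genes, 13 are protein-coding EEF genes, and 3 (EIF2AK3-DT, EIF2B5-DT and EIF3J-DT) are non-coding transcripts that start next to a factor gene and run the other way. The rule reads symbols and descriptions and uses no measured value.

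RNA was sequenced from MDA-MB-231, an established, mesenchymal-looking cell line from a triple-negative breast cancer. Both groups are the same line: 3 libraries came from cells carrying the vector, and 3 from cells overexpressing ADAMTS1, a secreted metalloprotease of the extracellular matrix. The form of the construct, its promoter, whether the cells were a clone or a pool, and the time of harvest were not given in the sources used here. Whether the 3 libraries of a group stand for separate cultures is not stated, and the p-values then measure only the spread between these libraries, which may be technical. ADAMTS1 itself was at 6.56, 6.72 and 6.99 FPKM (fragments per kilobase of transcript, scaled by the mapped total) with the vector and at 499, 462 and 501 FPKM with ADAMTS1. The relative depth of the libraries spanned 1 to 1.43. All 8 markers of MDA-MB-231 were at a mean of 1 FPKM or more (summed 1394 to 1453 FPKM with the vector, 1414 to 1444 FPKM with ADAMTS1). Of the 10 luminal or epithelial markers, 6 were at a mean of 1 FPKM or more. These were FOXA1 at 1.19 FPKM, EPCAM at 3.01 FPKM, ERBB2 at 5.69 FPKM, and KRT8, KRT18 and KRT19 at 37.2 to 74.2 FPKM. ESR1, PGR, GATA3 and CDH1 stayed at or under 0.301 FPKM in every library. The whole list of 10 summed to 181 to 196 FPKM with the vector and to 176 to 185 FPKM with ADAMTS1. Lists for haematopoietic, fibroblast and endothelial cells summed to at most 0.495, 1.36 and 0.861 FPKM per library.

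Translation starts when eIF2, bound to GTP and the initiator tRNA, joins the small ribosomal subunit together with eIF1, eIF1A, eIF3 and eIF5. The eIF4F complex, made of the cap-binding eIF4E, the scaffold eIF4G and the helicase eIF4A, recruits the messenger RNA, and the subunit then scans to a start codon, where eIF5B joins the large subunit. eIF2B recharges eIF2 with GTP, and stress-activated kinases block that step by phosphorylating eIF2. Elongation is carried out by eEF1A, which delivers aminoacyl-tRNA, by the eEF1B subunits that recharge it, by eEF2, which moves the ribosome along, and by eIF5A, which helps at poorly reacting peptide bonds. Many of these messenger RNAs begin with a terminal oligopyrimidine tract, a C followed by a run of pyrimidines, through which the mTORC1 kinase regulates how strongly they are translated.

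The factor genes were abundant and spanned a wide range of levels. Together they held 1.56%, 1.54% and 1.55% of the FPKM of the vector libraries and 1.53%, 1.55% and 1.55% of the FPKM of the ADAMTS1 libraries, so the totals of the groups overlapped. EEF1A1, the main form of eEF1A, was the highest member with 936, 939 and 945 FPKM with the vector and 931, 983 and 953 FPKM with ADAMTS1, and the 19th most abundant gene of the table. EEF2 followed with 399.8, 378 and 382 FPKM with the vector and 382, 376 and 379.7 FPKM with ADAMTS1, and then EIF5A at a mean of 362 FPKM over the 6 libraries, EIF4G1 at 206 FPKM and EEF1B2 at 146 FPKM. These 5 genes held 50.7% of the FPKM of all members. In all, 10 members averaged 100 FPKM or more, the others of these being EIF6, EIF4G2, EIF2S2, EIF1 and EIF4H. At the other end, EIF2AK3, EIF4E3, EIF4EBP3 and EIF2AK3-DT averaged 0.118 to 0.807 FPKM, under the mean of 1 FPKM set for testing, which left 66 members tested.

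**Figure D1:**
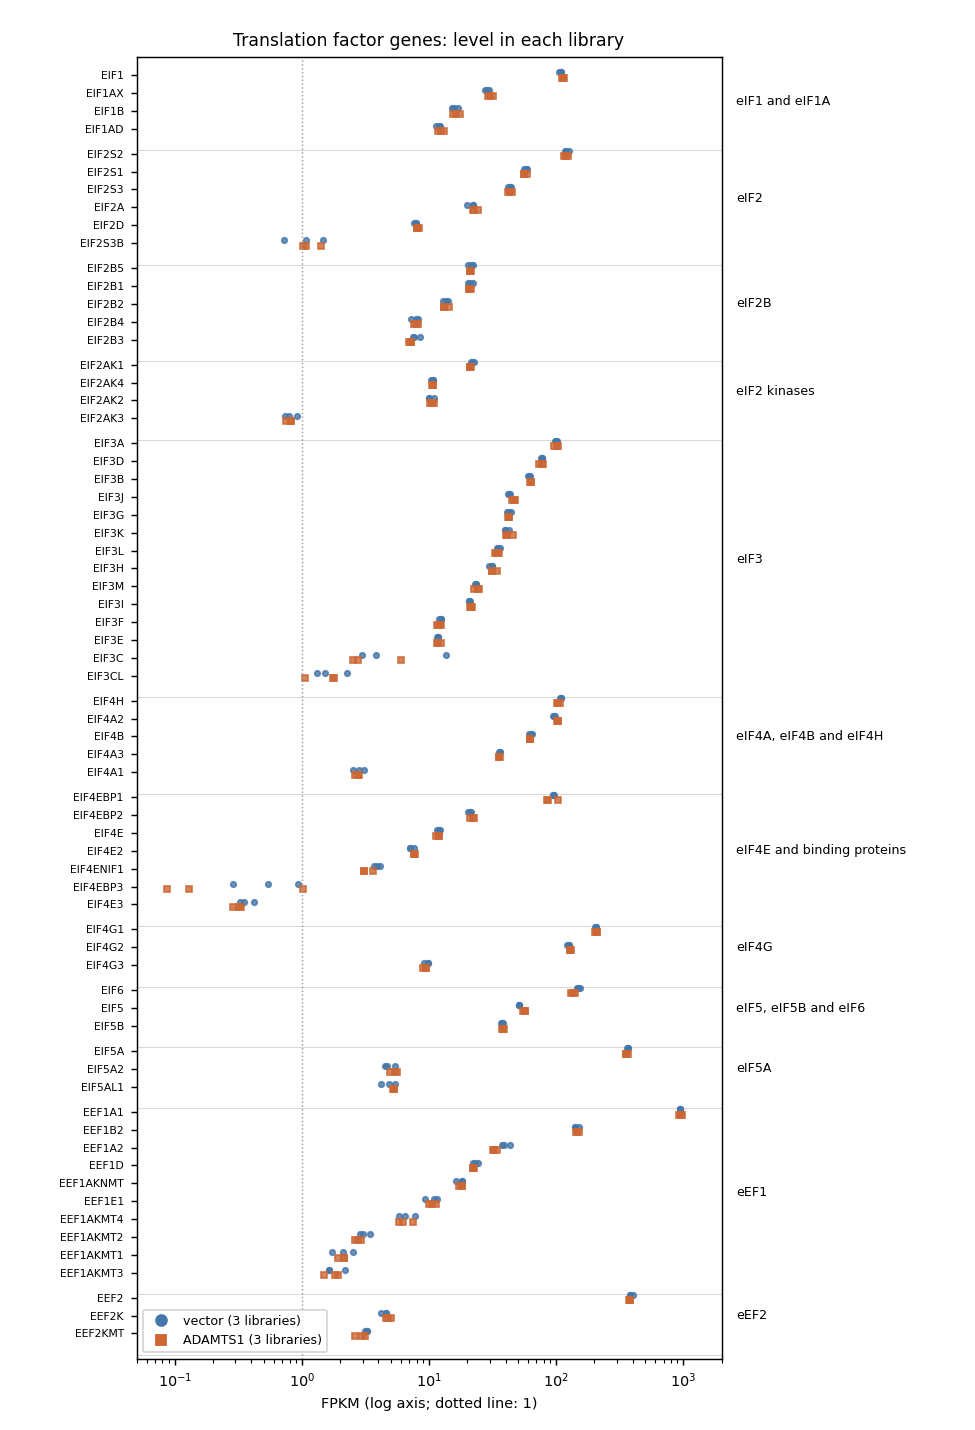
FPKM (log axis) of the 67 protein-coding members in each of the 3 vector libraries (circles) and the 3 ADAMTS1 libraries (squares), by complex and, within each, in order of mean level. The libraries of both groups lie close together for nearly every gene, from EEF1A1 at a mean of 948 FPKM down to EIF4E3 at 0.339 FPKM, and EIF3C shows 1 vector library apart at 13.7 FPKM.

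The sequence at the annotated transcription start is shown here because it is a feature that some members share and that the choice of genes did not use. Of the 10 members at 100 FPKM or more it was held by few: EEF1A1, EEF2 and EEF1B2 had a pyrimidine tract there, and these and EIF1 a core promoter motif. Windows came from RefSeq on GRCh38.p14, with an entry for 55 of the 70 members, 52 of them protein-coding. EIF2S2, among the 10 members at 100 FPKM or more, had no entry, so neither feature could be read for it. A tract was counted where the first transcribed base was C and at least the next 4 bases were each C or T, read on the transcribed sense only. By this rule 13 of the 52 coding members (25%) had a tract, against 1404 of 27305 genes of all kinds in the same table (5.14%). The core promoter motif searched was TATAAA or TATATA, which may overlap each other, on the sense strand and wholly within the window from 40 to 16 bases before the start. It was found in 5 of the 52 coding members (9.62%), against 1069 of the 27305 genes (3.92%). For both features, a gene with several annotated starts counted if any of them matched, among members and all genes alike. EEF1B2 and EIF2S3B each had another annotated start without a tract, and that of EEF1B2 also lacked the motif. Only their matching windows are printed. In all 5 members with the core promoter motif it began 30 bases before the start. In the sequences of these 5, which run from 40 bases before the start to 10 bases after it, the first block of capitals marks the motif and the second, where present, the pyrimidine tract. EIF4A1, the paralog of EIF4A2, is added for comparison and holds neither by these rules. Its window does hold TATAAG near the same position, which differs from the searched TATAAA in the last base only.
EEF1A1 (chr6:73521023-73521072, minus strand): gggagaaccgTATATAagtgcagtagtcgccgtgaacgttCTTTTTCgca
EEF2 (chr19:3985454-3985503, minus strand): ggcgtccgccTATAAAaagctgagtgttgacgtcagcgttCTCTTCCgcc
EEF1B2 (chr2:206159855-206159904, plus strand): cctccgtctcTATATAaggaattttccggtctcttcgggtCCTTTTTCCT
EIF4A2 (chr3:186783537-186783586, plus strand): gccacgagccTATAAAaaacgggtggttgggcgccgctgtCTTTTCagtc
EIF1 (chr17:41688845-41688894, plus strand): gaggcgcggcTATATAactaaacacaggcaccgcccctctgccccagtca
EIF4A1 (chr17:7572785-7572834, plus strand): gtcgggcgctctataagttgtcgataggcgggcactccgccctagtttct

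The other 9 members with a tract had no such motif. Their windows hold the 15 bases before the start in lower case, then the first 15 transcribed bases with the tract in capitals, and they show that the tract length differs between subunits of the same complex.
EIF3D (chr22:36529152-36529181, minus strand): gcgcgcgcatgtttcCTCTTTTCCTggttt
EIF3F (chr11:7987322-7987351, plus strand): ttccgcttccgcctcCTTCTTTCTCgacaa
EIF3K (chr19:38619173-38619202, plus strand): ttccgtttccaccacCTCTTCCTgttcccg
EIF3M (chr11:32583816-32583845, plus strand): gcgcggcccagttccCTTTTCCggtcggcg
EIF2S3 (chrX:24054941-24054970, plus strand): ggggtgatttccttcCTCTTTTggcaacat
EIF2S3B (chr12:10505875-10505904, plus strand): ggggtgactttcttcCTCTTTTggcaacat
EIF2A (chr3:150546772-150546801, plus strand): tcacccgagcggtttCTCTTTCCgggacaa
EIF2D (chr1:206612451-206612480, minus strand): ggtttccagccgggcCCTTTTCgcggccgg
EIF4B (chr12:53006441-53006470, plus strand): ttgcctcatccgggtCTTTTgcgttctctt

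The 4 members with both features, EEF1A1, EEF2, EEF1B2 and EIF4A2, ranged from 99.9 to 948 FPKM. EIF1, with the core promoter motif alone, was at 110.5 FPKM. The 9 with a tract alone had a median of 23.6 FPKM, and the 38 with neither a median of 12 FPKM and a highest value of 362 FPKM, that of EIF5A. The change between the groups was small in both classes: the 13 members with a tract had a median log2 change of 0.034 (9 above and 4 below 0), and the 36 tested coding members without one a median of 0.018 (20 above and 16 below 0). A match is a description of the letters and not evidence of a site in use.

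**Figure D2:**
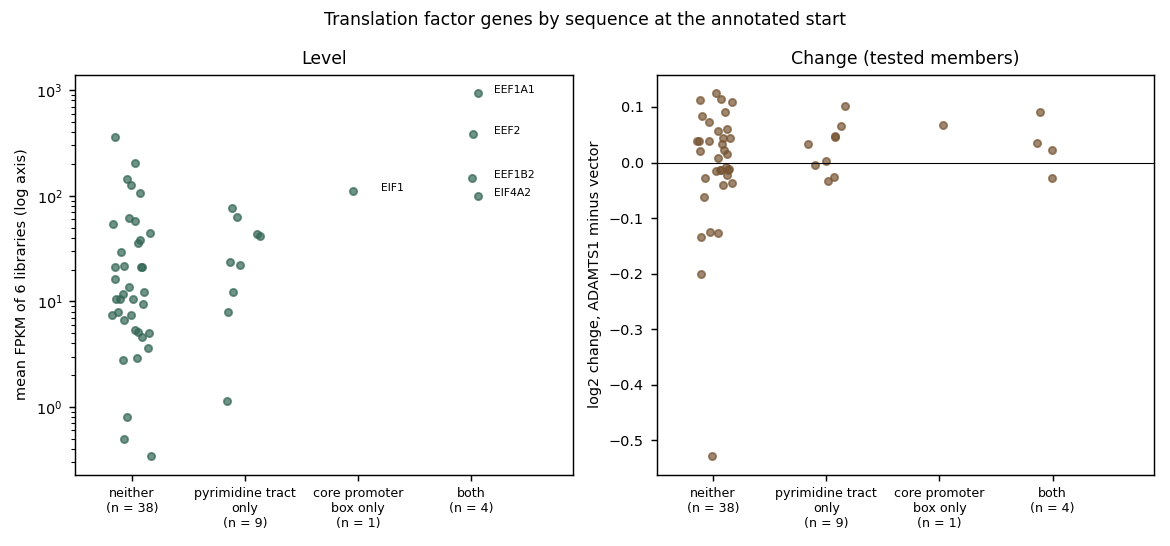
Left, mean FPKM over the 6 libraries (log axis) of the 52 coding members with a RefSeq start window. Groups go by whether any window of a gene holds a pyrimidine tract at the start, a core promoter box before it, both or neither. Right, the log2 change (ADAMTS1 minus vector) of the tested ones in the same groups; the 4 genes with both lie at or above 99.9 FPKM, and the changes of all groups lie around 0, with EIF3C (-0.53) apart among the genes with neither.

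No member passed the test between the groups. With limma, a linear model fitted to log2(FPKM + 1) across all 11897 tested genes, 0 of the 66 tested members had an adjusted p under 0.05, where 8 of all tested genes (0.0672%) did, 7 higher with ADAMTS1 and 1 lower (3 and 0 with the libraries scaled to a common sum). The lowest adjusted p of a member was 0.158, that of EIF5. The number of all genes called was 1 without vector replicate 1 or without ADAMTS1 replicate 2, 2 without vector replicate 2, vector replicate 3 or ADAMTS1 replicate 1, and 5 without ADAMTS1 replicate 3. At an unadjusted p under 0.05 there were 9 members (13.6%), against 12.2% of all tested genes. Of these 9, 4 were higher with ADAMTS1 (6.06% of members, 5.42% of all tested genes) and 5 lower (7.58% and 6.78%). This number was 5 without ADAMTS1 replicate 1 and 6 to 9 without any other library. The 3 values of one group lay wholly above or below the 3 of the other in 13 members (19.7%), against 18.8% of all tested genes. Of these 13, 8 were higher (12.1%, against 8.15%) and 5 lower (7.58%, against 10.6%). With 1 library left out, fewer values have to be separated, and the number was 19 to 22 (22 without vector replicate 3, 21 without vector replicate 1, ADAMTS1 replicate 1 or ADAMTS1 replicate 3), against 28.3% to 29.8% of all tested genes. With all 6 libraries, both shares of the members were thus near the background.

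The differences were also small. The median log2 change of the 66 members was 0.0058, against -0.0078 over all tested genes, with 35 members above 0 and 31 below. With the libraries scaled to a common sum the members' median was -0.0022 and that of all tested genes -0.017. That sum was larger than the deposited ones, so the 1 added before the logarithm also weighed less in this setting. The 95% interval was within 1.2-fold of FPKM + 1 in either direction for 54 of the 66 members (81.8%) and within 1.5-fold for 64 (97.0%). Over all tested genes these shares were 69.2% and 94.0%. At a mean of 5 FPKM or more, the share within 1.2-fold was 90.9% of members and 87.5% of all tested genes. Precision followed level: the median standard error of the log2 change was 0.072 for the 20 members between 1 and 10 FPKM and 0.026 for the 10 at 100 FPKM or more. By complex the medians ran from -0.027 for eEF2 with its kinase and methyltransferase to 0.11 for eIF5A and its relatives. The 51 tested coding EIF genes had a median of 0.015 and the 13 EEF genes one of -0.027. Both sets go by symbol and include enzymes or inhibitors that are not factors themselves. FPKM shows a gene relative to the rest of its library, so a change shared by all genes would not be seen, and fewer cells expressing a gene cannot be told apart from less of its RNA per cell.

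**Figure D3:**
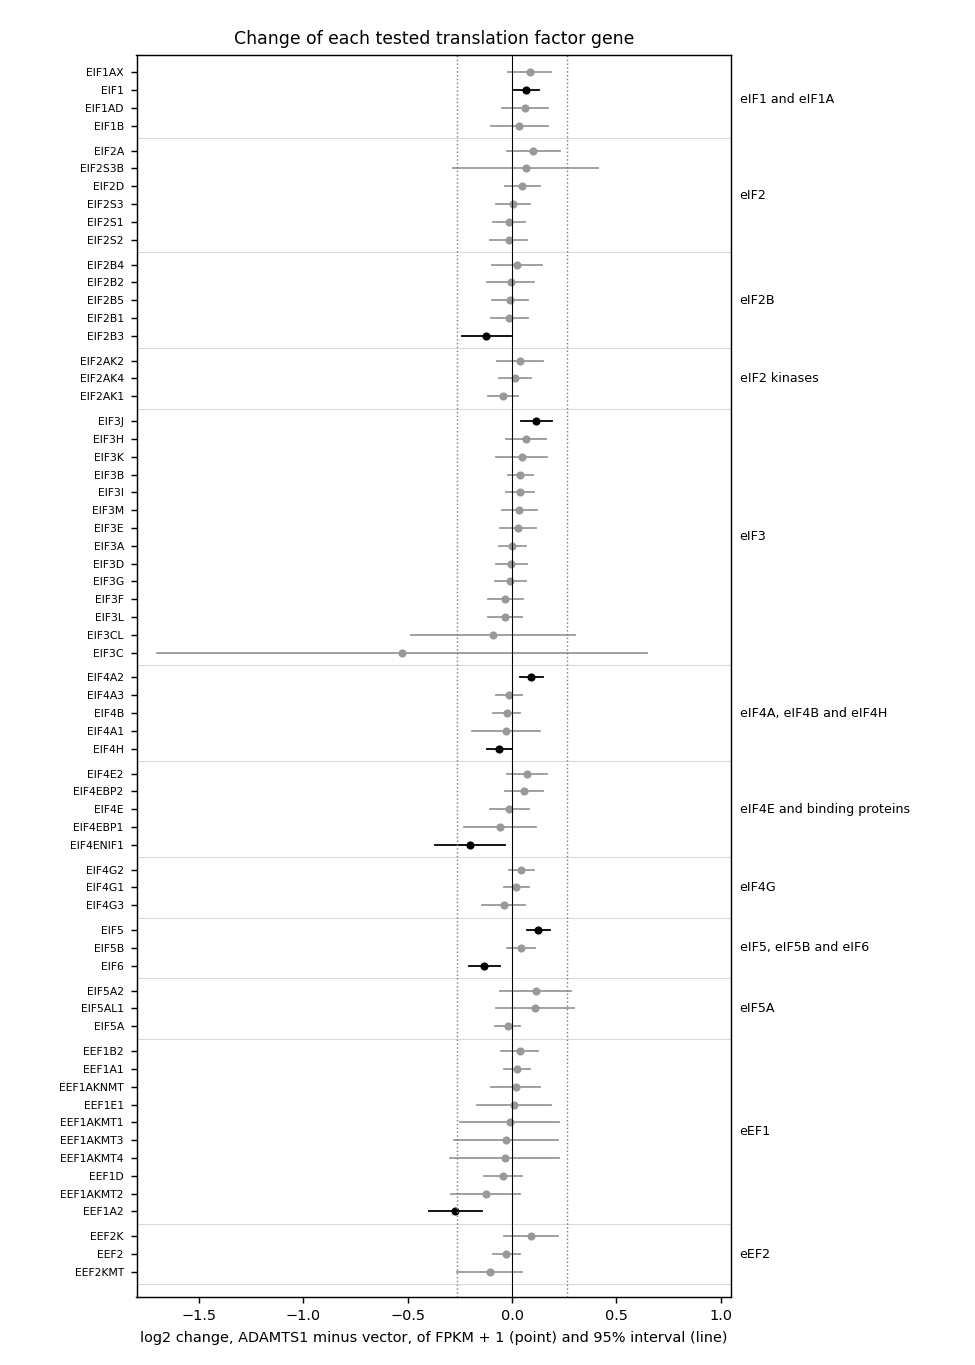
Log2 change, ADAMTS1 minus vector, of log2(FPKM + 1) for the 64 tested coding members (points) with 95% intervals (lines), by complex; dotted lines mark 1.2-fold either way, and black marks an unadjusted p under 0.05 (grey otherwise). Nearly all points lie between the dotted lines; EIF3C at -0.53 has the widest interval, and EEF1A2 at -0.27 is the lowest of the 9 black ones.

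The group of eIF1 and eIF1A, the factors that keep the scanning subunit open, held EIF1, EIF1B, EIF1AX and EIF1AD, the last a protein with an eIF1A-like domain that is not itself a scanning factor. All 4 genes lay slightly above 0, with a median log2 change of 0.064, and their summed level was 164 ± 1.5 FPKM (SD, n = 3) with the vector and 172 ± 3.44 FPKM with ADAMTS1. EIF1 (chr17:41688885-41692668 on hg38, plus strand), which guards the choice of start codon, had 108, 109 and 106 FPKM with the vector and 113, 115 and 111 FPKM with ADAMTS1. Every ADAMTS1 library was above every vector library, by a log2 change of 0.067 ± 0.025 (SE), with a limma adjusted p of 0.363. The unadjusted p stayed under 0.05 in 2 of the 6 fits without 1 library. EIF1AX, the X-linked gene of eIF1A, was at 28.7 ± 1.14 FPKM with the vector and 30.5 ± 1.46 FPKM with ADAMTS1, and EIF1B, a close relative of EIF1, at 16 ± 0.956 FPKM with the vector and 16.4 ± 1.07 FPKM with ADAMTS1. Their log2 changes were 0.085 ± 0.044 and 0.033 ± 0.058, with groups that overlapped. Together with its pseudogene copies, EIF1AX was at 60.8 ± 4.40 FPKM with the vector and 59.8 ± 0.747 FPKM with ADAMTS1. EIF1AD was at 11.9 ± 0.430 FPKM with the vector and 12.4 ± 0.676 FPKM with ADAMTS1.

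The 3 subunits of eIF2, which carries the initiator tRNA, had groups that overlapped and narrow intervals that spanned 0. EIF2S2, the beta subunit, was the most abundant with 119.9, 118 and 127 FPKM with the vector and 121, 124 and 116 FPKM with ADAMTS1, followed by EIF2S1, the alpha subunit that the stress kinases phosphorylate, with 56.0, 57.8 and 59.2 FPKM with the vector and 56.3, 59.1 and 55.9 FPKM with ADAMTS1. For these the 95% intervals of the log2 change were -0.10 to 0.073 and -0.090 to 0.064. EIF2S3, the gamma subunit, had an interval of -0.077 to 0.083. The ratio of EIF2S2 to EIF2S1 was 2.11 ± 0.0593 with the vector and 2.11 ± 0.0318 with ADAMTS1. EIF2A, which despite its name is a separate initiator tRNA-binding protein, had 19.9, 22.2 and 22.3 FPKM with the vector and 22.3, 24.3 and 22.6 FPKM with ADAMTS1, without overlap by a narrow margin, a log2 change of 0.10 ± 0.054 and a limma adjusted p of 0.501. EIF2D, another factor outside the complex, also had groups that did not overlap, at 7.83 ± 0.135 FPKM with the vector and 8.13 ± 0.132 FPKM with ADAMTS1.

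Among the 5 subunits of eIF2B, the exchange factor that recharges eIF2, 1 lay above 0 and 4 below, with a median log2 change of -0.011 and a summed level of 71.8 ± 1.71 and 70.8 ± 0.791 FPKM. EIF2B3, the gamma subunit (chr1:44850522-44986722, minus strand), had 7.63, 8.46 and 7.51 FPKM with the vector and 7.19, 7.0 and 7.19 FPKM with ADAMTS1. All 3 ADAMTS1 libraries were below the vector libraries, with a log2 change of -0.12 ± 0.050 and a limma adjusted p of 0.384, and the unadjusted p was under 0.05 in 2 of the 6 fits without 1 library. The catalytic subunit EIF2B5 was at 21.3 ± 0.880 FPKM with the vector and 21.2 ± 0.303 FPKM with ADAMTS1, and EIF2B1, the alpha subunit, at 21.2 ± 0.904 FPKM with the vector and 21.0 ± 0.403 FPKM with ADAMTS1, each with overlapping groups. EIF2B4, the delta subunit, had the highest change of the 5, 0.022 ± 0.051.

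Of the 4 kinases that phosphorylate eIF2, 3 were high enough to test and none had groups that did not overlap. EIF2AK1, the haem-regulated kinase, was the most abundant at 21.9 ± 0.602 FPKM with the vector and 21.3 ± 0.238 FPKM with ADAMTS1, with a 95% interval of the log2 change of -0.11 to 0.030. EIF2AK4, which senses uncharged tRNA, was at 10.6 ± 0.188 FPKM with the vector and 10.7 ± 0.0665 FPKM with ADAMTS1, and EIF2AK2, which binds double-stranded RNA, at 10.3 ± 0.501 FPKM with the vector and 10.6 ± 0.426 FPKM with ADAMTS1. EIF2AK3, the kinase of the endoplasmic reticulum stress response, was not tested, with 0.922, 0.739 and 0.787 FPKM with the vector and 0.827, 0.744 and 0.822 FPKM with ADAMTS1.

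The 14 genes of eIF3, the large scaffold on the small subunit, differed far more among themselves than between the groups. Their summed level was 506 ± 8.43 FPKM with the vector and 511 ± 4.63 FPKM with ADAMTS1, and the median log2 change was 0.015, with 8 genes above 0 and 6 below. EIF3A, the subunit that organises the complex, averaged 100 FPKM, EIF3D, which can bind the cap, 76.6 FPKM, and EIF3B 62.1 FPKM. EIF3J, EIF3G, EIF3K, EIF3L and EIF3H followed between 44.7 and 31.5 FPKM, EIF3M and EIF3I were at 23.6 and 21.1 FPKM, and EIF3F and EIF3E were at 12.1 and 11.8 FPKM. The subunits thus spanned a wide range of levels per length of transcript. The groups overlapped in EIF3A, with 98.8, 99.6 and 101 FPKM with the vector and 103, 96.8 and 101 FPKM with ADAMTS1, and in EIF3D, with 77.1, 77.2 and 75.8 FPKM with the vector and 73.2, 77.9 and 78.4 FPKM with ADAMTS1.

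EIF3J (chr15:44537125-44563029, plus strand), a loosely bound subunit at the decoding centre, was the only eIF3 gene at an unadjusted p under 0.05. It had 42.7, 42.1 and 43.7 FPKM with the vector and 46.7, 44.9 and 47.8 FPKM with ADAMTS1. The groups did not overlap, and the log2 change was 0.12 ± 0.031 with a limma adjusted p of 0.245. The p stayed under 0.05 in all 6 fits without 1 library. EIF3C, the subunit that contacts eIF1 and eIF5, had 13.7, 3.86 and 2.95 FPKM with the vector and 2.76, 2.54 and 6.03 FPKM with ADAMTS1. Vector replicate 1 was far above the other 5 libraries, and the log2 change of -0.53 ± 0.50 became 0.05 without it. EIF3C and its near-identical copy EIF3CL on the same chromosome, at 1.70 ± 0.494 FPKM with the vector and 1.53 ± 0.407 FPKM with ADAMTS1, can share reads, so the level of each is uncertain. Their summed FPKM was 15, 6.12 and 4.48 with the vector and 4.54, 3.61 and 7.79 with ADAMTS1, in which vector replicate 1 still stood apart.

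The helicase genes and their cofactors had a summed level of 308 ± 2.90 and 308 ± 2.88 FPKM. EIF4A2 (chr3:186783205-186789897, plus strand), a form of the helicase eIF4A, had 95.3, 96.3 and 98.4 FPKM with the vector and 104, 102 and 104 FPKM with ADAMTS1. The groups did not overlap, with a log2 change of 0.092 ± 0.023, a limma adjusted p of 0.230 and an unadjusted p under 0.05 in all 6 fits without 1 library. EIF4A3, the paralog that sits in the exon junction complex, was at 36.0 ± 0.610 FPKM with the vector and 35.7 ± 0.453 FPKM with ADAMTS1, so that the ratio of EIF4A2 to EIF4A3 was 2.69 ± 0.0488 and 2.89 ± 0.0265. EIF4H (chr7:74174231-74197122, plus strand), a cofactor that stimulates the helicase, had 110.2, 109 and 108 FPKM with the vector and 102, 104 and 107 FPKM with ADAMTS1. All ADAMTS1 libraries were below the vector libraries in EIF4H, by a log2 change of -0.062 ± 0.025 with a limma adjusted p of 0.391, and the unadjusted p was under 0.05 in 1 of the 6 fits without 1 library. EIF4B, the other cofactor, was at 63.3 ± 1.89 FPKM with the vector and 62.1 ± 0.171 FPKM with ADAMTS1, with a 95% interval of -0.091 to 0.040 for the log2 change.

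Per length of transcript, the cap-binding EIF4E was well below the gene of its inhibitor. EIF4EBP1, which blocks eIF4E until mTORC1 phosphorylates it, had 94.1, 97.1 and 94.7 FPKM with the vector and 84.6, 104 and 86.8 FPKM with ADAMTS1. The ADAMTS1 libraries lay on both sides of the vector libraries, so the groups overlapped, and the log2 change was -0.059 ± 0.073. It was -0.15 without ADAMTS1 replicate 2, with a limma adjusted p of 0.285 and an unadjusted p of 0.0014, -0.0034 without ADAMTS1 replicate 1 and -0.022 without ADAMTS1 replicate 3. EIF4E itself was at 11.9 ± 0.385 FPKM with the vector and 11.8 ± 0.390 FPKM with ADAMTS1, and the ratio of EIF4EBP1 to EIF4E was 8.01 ± 0.252 with the vector and 7.80 ± 0.786 with ADAMTS1. With the pseudogene copies of EIF4E added to it, that ratio was 3.82 ± 0.0633 and 3.92 ± 0.628. EIF4EBP2, a related inhibitor, was at 20.9 ± 0.600 FPKM with the vector and 21.8 ± 0.865 FPKM with ADAMTS1. EIF4E2, a cap-binding protein of translational repression, had 7.15, 7.03 and 7.58 FPKM with the vector and 7.60, 7.77 and 7.69 FPKM with ADAMTS1, without overlap, and a limma adjusted p of 0.520. EIF4ENIF1 (chr22:31436977-31496108, minus strand), which carries eIF4E into the nucleus, had 3.9, 4.11 and 3.69 FPKM with the vector and 3.07, 3.07 and 3.66 FPKM with ADAMTS1. All its ADAMTS1 values were below its vector values, with a log2 change of -0.20 ± 0.071 and a limma adjusted p of 0.340, and the unadjusted p was under 0.05 in 2 of the 6 fits without 1 library. DRG1, on the other strand and overlapping it, averaged 26.0 FPKM, and without a stated strand setting the reads of both cannot be told apart.

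The 3 scaffold genes of eIF4G had a summed level of 339 ± 4.04 FPKM with the vector and 346 ± 5.04 FPKM with ADAMTS1. EIF4G1, which bridges cap, helicase and eIF3, had 204, 206 and 203 FPKM with the vector and 211, 201 and 210.4 FPKM with ADAMTS1, with overlapping groups and a 95% interval of the log2 change of -0.040 to 0.081. EIF4G2, a relative without the eIF4E-binding part, had 122, 127 and 127 FPKM with the vector and 128, 130.1 and 129.7 FPKM with ADAMTS1. Its groups did not overlap, and its log2 change was 0.045 ± 0.025 with a limma adjusted p of 0.526. EIF4G3, the paralog of EIF4G1, was at 9.58 ± 0.423 FPKM with the vector and 9.28 ± 0.278 FPKM with ADAMTS1, so that EIF4G1 exceeded it 21.4 ± 0.933 times with the vector and 22.3 ± 0.0941 times with ADAMTS1.

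The factors of start site recognition and subunit joining held the member with the lowest p and one that lay in the other direction. EIF5 (chr14:103333544-103345025, plus strand), which triggers GTP hydrolysis on eIF2, had 51.2, 51.0 and 51.5 FPKM with the vector and 56.7, 56.4 and 54.9 FPKM with ADAMTS1. The lowest ADAMTS1 library was above the highest vector library, and the log2 change was 0.13 ± 0.024 with a limma adjusted p of 0.158. EIF6 (chr20:35278907-35284985, minus strand), which keeps the free large subunit from joining too early, had 154, 146 and 149 FPKM with the vector and 132, 139.9 and 137 FPKM with ADAMTS1. Here every ADAMTS1 library was below every vector library, with a log2 change of -0.13 ± 0.032 and a limma adjusted p of 0.209. Both had an unadjusted p under 0.05 in all 6 fits without 1 library. The ratio of EIF5 to EIF6 was 0.332, 0.350 and 0.347 in the vector libraries and 0.429, 0.403 and 0.402 in the ADAMTS1 libraries, a pair chosen after its values were seen. EIF5B, the GTPase of subunit joining, was at 37.3 ± 0.729 FPKM with the vector and 38.5 ± 0.747 FPKM with ADAMTS1, with overlapping groups.

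**Figure D4:**
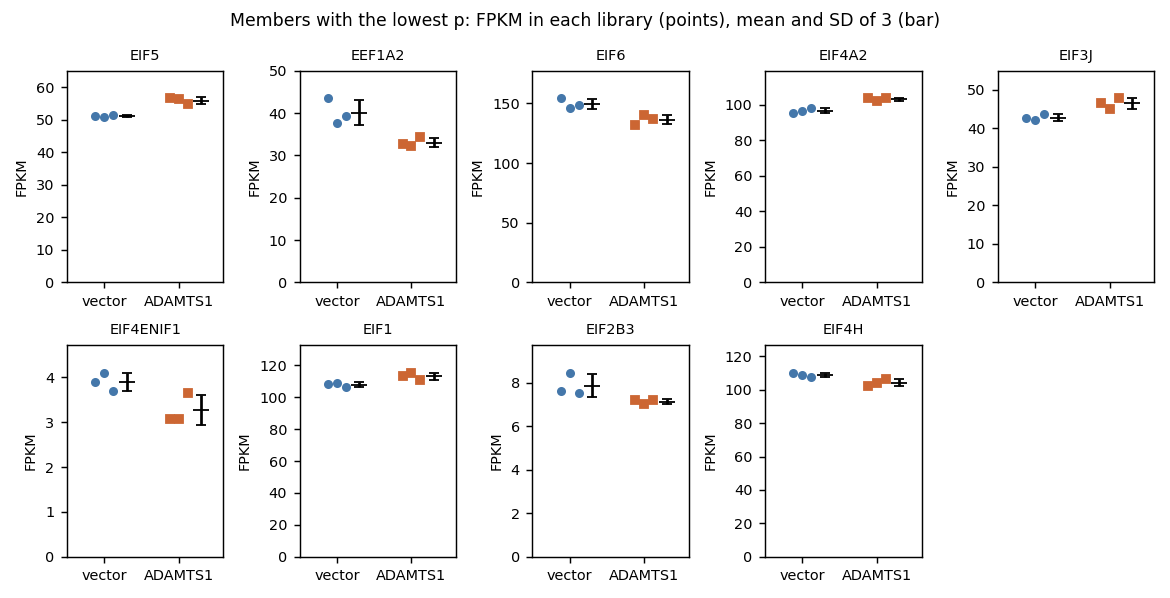
FPKM in each library of the 9 members at an unadjusted p under 0.05, with circles for the vector, squares for ADAMTS1 and bars for the mean and SD of 3 libraries; each axis starts at 0. The groups do not overlap in any of the 9, and the differences are small against the level, as in EIF5 (51.2 ± 0.246 against 56.0 ± 0.986 FPKM); none passed after adjustment over all tested genes.

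EIF5A, with its paralog the only protein known to carry the modified residue hypusine, was the third most abundant member, with 367, 358 and 368 FPKM with the vector and 368, 357 and 352 FPKM with ADAMTS1. The groups overlapped, with a 95% interval of the log2 change of -0.082 to 0.038. Its paralog EIF5A2 was at 4.84 ± 0.457 FPKM with the vector and 5.31 ± 0.371 FPKM with ADAMTS1, and EIF5AL1, a near-identical copy of EIF5A whose reads may be shared with it, at 4.82 ± 0.635 FPKM with the vector and 5.25 ± 0.0690 FPKM with ADAMTS1. Both overlapped between the groups and had log2 changes of 0.11 ± 0.072 and 0.11 ± 0.079.

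In elongation, the eEF1 genes had a summed level of 1190 ± 9.94 FPKM with the vector and 1200 ± 29.3 FPKM with ADAMTS1, most of it from EEF1A1 and EEF1B2. EEF1A2 (chr20:63488013-63499239, minus strand), the form of eEF1A normally found in muscle and neurons and known from ovarian and breast tumours, was the only elongation factor gene at an unadjusted p under 0.05. It had 43.5, 37.6 and 39.2 FPKM with the vector and 32.6, 32.1 and 34.3 FPKM with ADAMTS1. All ADAMTS1 libraries were below all vector libraries, with a log2 change of -0.27 ± 0.055, a limma adjusted p of 0.170 and an unadjusted p under 0.05 in all 6 fits without 1 library. EEF1A1 exceeded it 21.5, 24.9 and 24.1 times in the vector libraries and 28.5, 30.6 and 27.8 times in the ADAMTS1 libraries, which do not overlap. EEF1A1 itself had a log2 change of 0.023 ± 0.027 with overlapping groups, and the sum of both forms was 980 ± 4.11 and 989 ± 26.1 FPKM.

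EEF1B2, the exchange factor that recharges eEF1A, was at 144 ± 6.73 FPKM with the vector and 148 ± 4.13 FPKM with ADAMTS1, with a 95% interval of -0.055 to 0.13 for the log2 change, and EEF1D, another exchange subunit, at 23.2 ± 1.17 FPKM with the vector and 22.4 ± 0.288 FPKM with ADAMTS1. EEF1E1, a scaffold of the tRNA synthetase complex, was at 10.6 ± 1.12 FPKM with the vector and 10.7 ± 0.615 FPKM with ADAMTS1. The 5 genes of methyltransferases that modify eEF1A ranged from 1.78 FPKM for EEF1AKMT3 to 17.7 FPKM for EEF1AKNMT, with log2 changes of -0.13 to 0.017 and overlapping groups. EEF2, the translocase, had a 95% interval of the log2 change of -0.092 to 0.037. EEF2K, the kinase that inactivates it, was at 4.45 ± 0.231 FPKM with the vector and 4.80 ± 0.242 FPKM with ADAMTS1, and EEF2KMT, which methylates it, at 3.21 ± 0.0708 FPKM with the vector and 2.91 ± 0.275 FPKM with ADAMTS1. Their log2 changes were 0.091 ± 0.055 and -0.11 ± 0.067, and neither gene had groups that did not overlap.

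The 3 non-coding neighbours were low. EIF3J-DT, beside EIF3J, had 2.20, 1.72 and 1.85 FPKM with the vector and 1.90, 1.92 and 2.21 FPKM with ADAMTS1, and EIF2B5-DT, beside EIF2B5, had 1.63, 0.831 and 1.03 FPKM with the vector and 2.65, 0.934 and 1.25 FPKM with ADAMTS1. The groups overlapped in both. The log2 change of EIF2B5-DT, 0.23 ± 0.25, was the highest of all members and became -0.035 without ADAMTS1 replicate 1. EIF2AK3-DT was at 0.132 and 0.103 FPKM in the means of the groups and was not tested.

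Many members have processed copies elsewhere in the genome, and the reads of near-identical copies can be divided between them by the counting. The 69 EIF and EEF rows left out as pseudogenes or antisense transcripts summed to 339 FPKM in the mean, against 4030 FPKM for the members. The 18 EEF1A1 copies were listed at 180 FPKM, led by EEF1A1P5, which is 16% of gene and copies together. The share was 50.8% for EIF1AX, 51.1% for EIF4E and 36.5% for EIF3F. It was highest for EIF4A1, the general helicase subunit, which was listed with 2.55, 2.83 and 3.09 FPKM with the vector and 2.81, 2.79 and 2.64 FPKM with ADAMTS1, while its 8 copies, led by EIF4A1P10, summed to 16.5 FPKM, or 85.5% of both. The levels of these genes are therefore uncertain. The EIF4A1 share was 85.9% ± 1.59 with the vector and 85% ± 1.31 with ADAMTS1, and that of EEF1A1 16.3% ± 0.652 and 15.7% ± 0.543. It was 52.6% ± 2.44 and 48.9% ± 3.01 for EIF1AX, and 52.3% ± 0.727 and 49.9% ± 2.99 for EIF4E. For EIF1AX and EIF4E the means differed by more than the SD of the vector libraries, but for EIF4E by less than the SD of the ADAMTS1 libraries. For EIF4A1 and EEF1A1 they differed by less than the SD of the vector libraries. For EIF4E and its copies together the level was 25.0 ± 0.532 and 23.6 ± 1.55 FPKM.

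Genes of the pathway outside the factors themselves were followed in 7 lists with 67 genes, of which 63 were tested. None of the 63 passed the adjusted threshold, with a lowest limma adjusted p of 0.149, that of ATF5. At an unadjusted p under 0.05 there were 12 (19%, against 12.2% of all tested genes), 3 of them higher (4.76%, against 5.42%) and 9 lower (14.3%, against 6.78%). The median log2 change was 0.0072. The counts of each list are at that p, to be read against these shares of all tested genes. These shares are not matched for level. Of all tested genes at a mean of 5 FPKM or more, 6.67% were higher and 8.31% lower at that p. The lists themselves were chosen with earlier results of these data known, and an excess of lower genes in them was not tested. The genes named at that p were chosen after their values were seen, beside the most abundant ones of each list.

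Termination and recycling had 0 higher and 2 lower of 8 tested. These were GSPT2, a GTPase of termination, at 3.75 ± 0.161 FPKM with the vector and 2.78 ± 0.335 FPKM with ADAMTS1, and PELO, which rescues stalled ribosomes, at 16.3 ± 0.0546 FPKM with the vector and 15.5 ± 0.205 FPKM with ADAMTS1. The release factor ETF1 was the most abundant, at 79.4 ± 2.57 FPKM with the vector and 76.6 ± 0.529 FPKM with ADAMTS1, before the recycling factor DENR, at 44.9 ± 1.38 FPKM with the vector and 46.4 ± 0.658 FPKM with ADAMTS1. Partners of the poly(A) tail and cap had none of 12 tested. PABPC1, the poly(A)-binding protein, was at 152 ± 4.12 FPKM with the vector and 159 ± 2.30 FPKM with ADAMTS1, and LARP1, which binds oligopyrimidine tracts, at 68.8 ± 2.12 FPKM with the vector and 68.2 ± 1.83 FPKM with ADAMTS1.

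The mTORC1 and MNK arm had 0 higher and 2 lower of 12 tested. RPTOR, the subunit of mTORC1 that binds its substrates, had 15.4, 14.6 and 14.5 FPKM with the vector and 12.9, 13.0 and 13.1 FPKM with ADAMTS1. All its ADAMTS1 libraries were below its vector libraries, with a limma adjusted p of 0.155. The other was DDIT4, a stress-induced inhibitor of mTORC1, at 38.7 ± 5.29 FPKM with the vector and 28.6 ± 1.76 FPKM with ADAMTS1. RHEB, the GTPase that activates mTORC1, was the most abundant, at 47.2 ± 2.80 FPKM with the vector and 49.9 ± 1.79 FPKM with ADAMTS1. The eIF2 phosphatase and ATF4 arm had 1 higher and 2 lower of 6 tested. ATF4, the transcription factor whose translation follows eIF2 phosphorylation, was at 134 ± 1.55 FPKM with the vector and 122 ± 2.47 FPKM with ADAMTS1, without overlap and with a limma adjusted p of 0.155. TRIB3, a target of ATF4, had 13.8, 13.9 and 12.6 FPKM with the vector and 11.2, 12.9 and 11.2 FPKM with ADAMTS1, with overlapping groups. ATF5, a related transcription factor, lay in the other direction, with 13.0, 13.7 and 13.8 FPKM with the vector and 15.3, 15.5 and 15.8 FPKM with ADAMTS1 and no overlap. PPP1R15A, which guides the phosphatase to eIF2, was at 76.0 ± 0.815 FPKM with the vector and 78.1 ± 1.25 FPKM with ADAMTS1.

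The enzymes of hypusine and diphthamide, the modified residues of eIF5A and eEF2, had 0 higher and 1 lower of 8 tested. This was DHPS, the first enzyme of hypusine, at 1.31 ± 0.141 FPKM with the vector and 0.952 ± 0.107 FPKM with ADAMTS1, close to the minimum for testing. DOHH, which completes hypusine, was at 20.3 ± 0.661 FPKM with the vector and 20.2 ± 0.145 FPKM with ADAMTS1. The mitochondrial translation factors had 2 higher and 1 lower of 8 tested. The initiation factor MTIF3 was at 6.19 ± 0.440 FPKM with the vector and 7.43 ± 0.0362 FPKM with ADAMTS1 and the release factor MTRF1 at 2.88 ± 0.364 FPKM with the vector and 3.45 ± 0.238 FPKM with ADAMTS1, while GFM2, a recycling factor, was at 13.7 ± 0.798 FPKM with the vector and 12.4 ± 0.364 FPKM with ADAMTS1. The most abundant were the elongation factor TUFM, at 104 ± 1.61 FPKM with the vector and 105 ± 1.49 FPKM with ADAMTS1, and the initiation factor MTIF2, at 27.6 ± 0.499 FPKM with the vector and 28.1 ± 0.796 FPKM with ADAMTS1. Other messenger RNAs known for a terminal oligopyrimidine tract had 0 higher and 1 lower of 9 tested, which was RACK1, a protein of the small subunit, at 257 ± 4.41 FPKM with the vector and 244 ± 4.31 FPKM with ADAMTS1. NPM1, a nucleolar chaperone, was at 224 ± 3.12 FPKM with the vector and 221 ± 5.25 FPKM with ADAMTS1. The medians of the 7 lists ran from -0.012 to 0.026, against 0.0058 for the factor genes and -0.0078 for all tested genes.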

How the data were processed

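Total RNA of 3 vector and 3 ADAMTS1 samples of MDA-MB-231 was sequenced with Illumina libraries, per the labels' protocols. The authors deposited FPKM per gene and sample, which divides by transcript length and mapped total. FastQC, HISAT2, StringTie and the build hg38 are named per the submitters' processing notes; versions, the annotation, strand setting and RNA selection are not given in the sources used here. How many reads each sample had is unknown, and relative depth was estimated from ratios of low values (FPKM of 0.02 to 0.5).

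The table had 32119 entries. Where a symbol was repeated, the highest entry by mean FPKM stayed (284 dropped), leaving 31835 genes, and 8578 entries had no symbol. Of 139 entries that match the symbol rule, 69 were left out as pseudogene or antisense. Gene types came from GENCODE 29, start windows from RefSeq on GRCh38.p14, and positions from the deposited table.

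Genes at a mean FPKM of at least 1 (11897) were fitted with limma 3.58.1 in R 4.3.3 (lmFit, eBayes with trend) on log2(FPKM + 1), all 6 samples, with no further term. The tests were two-sided, with Benjamini-Hochberg adjustment over all tested genes and a threshold of 0.05. The fold changes are on the log2(FPKM + 1) scale, which understates those of low genes. Residual degrees of freedom were 4 and prior ones 3.191, and the fit was tested on simulated data. Groups were taken from the sample titles. Python 3.11.15 with pandas 2.3.3, NumPy 2.4.6 and Matplotlib 3.10.9 gave the other values and the plots.

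Alternatives were a pseudocount of 0.1, no filter, a mean FPKM of at least 5, 3 scalings between libraries, eBayes without trend, the replicate number as a block, and each library left out. Common sum scaling also raised all values, which made the pseudocount relatively smaller, so it changed more than the scaling between libraries. Named were all members at an unadjusted p under 0.05 and, in each complex, the 2 most abundant and those with the largest change in each direction. Other members are named as examples, chosen after their values were seen. The members, lists and naming rule were chosen with earlier results of these data known.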

Additional observations from a re-analysis of the deposited data

How the results depend on the processing

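No member passed the adjusted threshold with limma as described or in any of the 14 alternatives, and the lowest adjusted p of a member ranged from 0.077 (mean FPKM of at least 5) to 0.340 without a replicate. The number of members at an unadjusted p under 0.05 was 5 to 9. The 9 members at that p kept their sign in every alternative that tested them. The number of all genes called, 8 as reported, was 1 without a filter, 31 at a mean FPKM of at least 5 (17 higher and 14 lower), 3 with common sum scaling, 2 with eBayes without trend, and 1 to 5 without 1 library. At the higher filter fewer genes enter the adjustment, and the fit itself was made anew on these genes. The cause of the shifts was not tested.

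The replicate numbers did not pair the samples: deviations of same-numbered vector and ADAMTS1 samples correlated at -0.0022, 0.018 and -0.093, and not every sample correlated best with its own number. With the replicate number as a block, 1 gene and 0 members were called (lowest member adjusted p 0.309), and 7 members were at an unadjusted p under 0.05, 5 higher and 2 lower.

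Without 1 library the members with groups that do not overlap numbered 19 to 22, a count in which fewer values have to be separated, and the members' median log2 change was 0.0036 to 0.023. The median of eIF4E and its binding proteins was -0.056 without a filter, 0.021 at a mean FPKM of at least 5, and -0.038 to 0.011 without 1 library. The median of eIF3 was 0.029 at the higher filter and 0.0074 to 0.030 without 1 library. Without 1 library the medians of eIF2, of eIF4A with eIF4B and eIF4H, and of eIF5A were -0.0052 to 0.041, -0.027 to -0.0043 and 0.028 to 0.11.

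The sign of the log2 change turned in at least 1 alternative for 24 of the 66 tested members, 11 of them given here and 13 others, and for each of the 24 in a fit without 1 library. EIF3D was 0.00085 with upper quartile scaling, 0.0047 with median of ratios scaling and -0.022 to 0.027 without 1 library, and EIF3A was -0.0070 with common sum scaling and -0.016 to 0.025 without 1 library. Without 1 library, EIF1B was -0.013 to 0.077, EIF2S1 -0.038 to 0.0053, EIF2S2 -0.040 to 0.016, EIF2B1 -0.039 to 0.019, EIF2B4 -0.022 to 0.056, EIF2B5 -0.043 to 0.013, EIF3C -0.89 to 0.052, EIF2B5-DT -0.035 to 0.42 and EIF3J-DT -0.0062 to 0.11. The cause was not tested. Keeping every entry of a repeated symbol gave the same 70 members. The 3 libraries a group limit the precision, with a median standard error of the members' log2 change of 0.039.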

Other observations

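Under the symbol EEF1G, the gamma subunit of the eEF1 complex, the table held no member. An entry without a symbol on chromosome 7, ENSG00000283041, whose description names elongation factor 1 gamma, had 140.0, 132 and 132 FPKM with the vector and 127, 137 and 132 FPKM with ADAMTS1, and the groups overlapped. Whether this entry holds the reads of EEF1G was not tested. EIF4A1 was listed at a low level for a general factor, at a mean of 2.78 FPKM beside 16.5 FPKM for its copies.

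Of the 70 members, 33 overlap another entry listed at 0.5 FPKM or more in the deposited positions, mostly on the other strand. RALY, opposite EIF2S2, averaged 34.2 FPKM, and RFC4, opposite EIF4A2, averaged 30.1 FPKM. SERP1, opposite EIF2A, averaged 22.7 FPKM against 22.3 FPKM for EIF2A itself. The part of these reads in the levels of the members was not tested.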
